A study of Mus musculus with 16 samples.

Results

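The mitochondrial genome of the mouse is a small circle that carries 37 genes, and these 37 are described here in kidneys after vehicle or cisplatin. They were found as all genes of the table whose name begins with mt-, 37 of 46078, and comprised 13 mRNAs, 2 rRNAs and 22 tRNAs. RNA had been prepared from frozen kidneys of C57BL/6 mice aged 20 weeks, perfused at harvest 72 h after an intraperitoneal injection, and 16 libraries fell into 4 groups of 4. Mice without preconditioning received sodium chloride as vehicle (BL_vehicle) or cisplatin (BL_cisplatin), a platinum drug that injures kidney tubules. The other mice received cisplatin after calorie restriction for 4 weeks (CR_cisplatin), or after repeated hypoxia (HP_cisplatin) that lasted 2, 4 and 8 h over 3 days. No preconditioned group received vehicle, so every CR_cisplatin and HP_cisplatin library carries the effects of both the preconditioning and the drug. The labels number no replicates and name no separate animals, and p-values therefore measure only the spread between these samples.

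Both strands of the mitochondrial genome are transcribed over nearly their whole length by a single-subunit RNA polymerase, Polrmt. The long transcripts are cut at the tRNAs that lie between most of the other genes, which frees the mRNAs and rRNAs. The mRNAs encode core subunits of respiratory complexes I, III, IV and V, whose remaining subunits are made from nuclear genes, and the rRNAs and tRNAs serve the ribosome that translates them. Proximal tubule cells of the kidney are rich in mitochondria and depend on respiration for transport.

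The unit is TPM, which divides a gene's reads by its length and gives every library the same total, so levels of different genes can be compared. Read numbers recovered from the TPM came to between 49180903 and 62604521 per library. Mitochondrial rRNA took 27.4 to 33.1% of these reads, and the depletion kit named in the labels is one for cytoplasmic rRNA. The 13 mRNAs took 897641 to 1938928 reads per library and the 22 tRNAs only 738 to 2126. All 8 proximal tubule markers examined were present at 1 TPM or more in all 16 libraries, so the tissue label held. Library titles begin with 1 of 2 codes: the first covers all 4 BL_cisplatin libraries and CR_cisplatin 1, and the second the other 11. For BL_cisplatin against vehicle and against HP_cisplatin, title code and group cannot be told apart. HP_cisplatin 4 and CR_cisplatin 4 were closer to each other than any other pair, with a median chi-square over its expected value of 1.68 against at least 3.34, and counts of genes that rest on HP_cisplatin are given with and without HP_cisplatin 4. Markers of adipocytes summed to between 19.1 and 178 TPM in BL_vehicle 3, BL_cisplatin 4, CR_cisplatin 4, HP_cisplatin 2 and HP_cisplatin 4, and to at most 2.63 TPM in the other 11 libraries. These sums were 77.1 TPM in CR_cisplatin 4 and 76.0 TPM in HP_cisplatin 4. Whether this pair comes from separate animals cannot be told from the labels.

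Of the 13 mRNA genes, 7 have a nuclear copy at 99% identity or more on chromosome 1, between 24611535 and 24616197 of GRCm38, and the deposited table splits the reads between gene and copy. The sequences of 3 pairs are shown because gene and copy differ by at most 1 base over the bases aligned. Over its first 60 bases mt-Co3 (chrM:8607-8666), a subunit of complex IV, has the same letters as the pseudogene Gm28437 (chr1:24613912-24613971, minus strand), as it has over all 783 bases aligned. The mt-Nd3 and mt-Co1 stretches each hold the single substitution that separates gene and copy, printed in capitals: T3C for mt-Nd3 against Gm28438 and A1066T for mt-Co1 against Gm29216, counted from 1 at the first base of the mitochondrial gene.
mt-Co3 and Gm28437: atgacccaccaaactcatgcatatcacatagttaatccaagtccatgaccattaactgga
mt-Nd3 (chrM:9459-9506): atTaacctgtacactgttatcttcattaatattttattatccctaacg
Gm28438 (chr1:24613072-24613119, minus strand): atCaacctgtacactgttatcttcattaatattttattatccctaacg
mt-Co1 (chrM:6390-6438): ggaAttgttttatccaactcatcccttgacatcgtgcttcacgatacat
Gm29216 (chr1:24616140-24616188, minus strand): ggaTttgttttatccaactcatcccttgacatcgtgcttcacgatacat

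For mt-Co2, mt-Co3 and mt-Atp6, a core subunit of complex V, nearly all reads stood under the copy. The mt-Co2 row held 0.148 to 2.38 TPM, while Gm28661, identical to it over 681 bases, averaged 11607 TPM over the 16 libraries. The mt-Atp6 row held 0.0797 to 1.46 TPM and its copy Gm10925 averaged 9175 TPM. The mt-Co3 row held 0.208 to 2.32 TPM and Gm28437 averaged 13460 TPM. For mt-Nd4l and mt-Nd4 it was the other way round, with copies Gm10222 and Gm28439 at mean TPM of 0.653 and 0.279. For mt-Nd3 the copy Gm28438 averaged 91.4 TPM, and adding it raised the vehicle mean of mt-Nd3 from 3455 to 3579 TPM. For mt-Co1 the copy Gm29216 covers only the last 483 bases of the gene and averaged 19351 TPM. Values of these 7 genes are therefore uncertain as to their origin, and levels with the reads of the copies added are given where they bear on a result. Reads from the mitochondrial gene and from the copy cannot be told apart where the letters are the same.

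**Figure D1:**
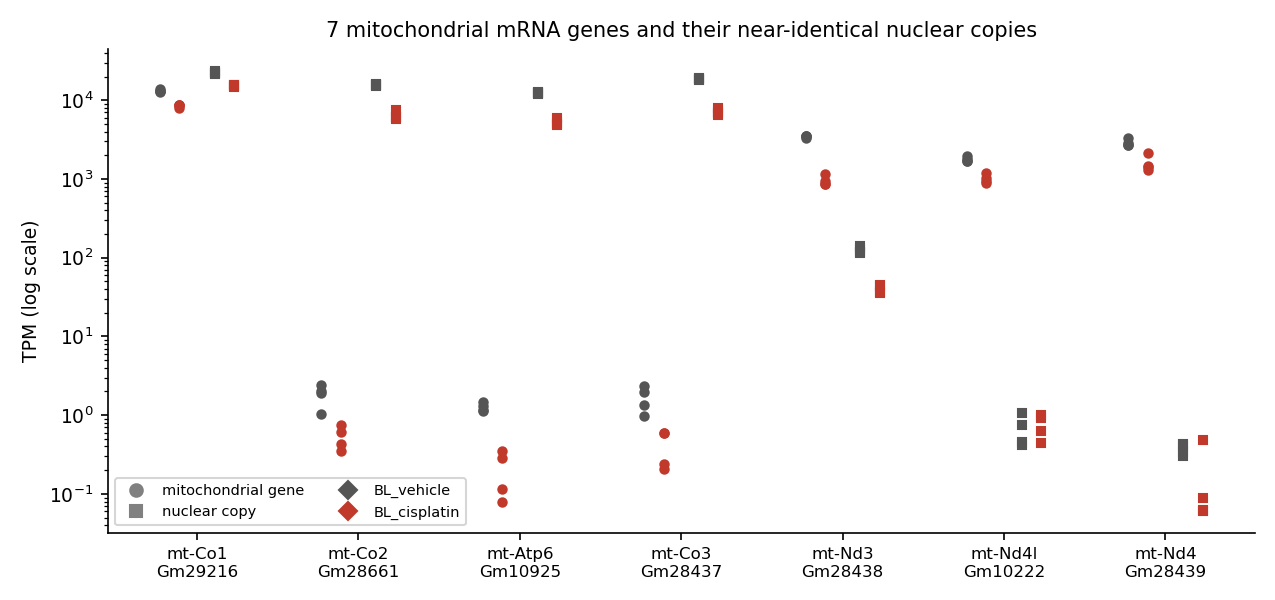
TPM (log scale) of 7 mitochondrial mRNA genes (circles) and their near-identical nuclear copies (squares), 1 point per library, in the 4 BL_vehicle (grey) and 4 BL_cisplatin (red) libraries. For mt-Co2, mt-Atp6 and mt-Co3 the gene lies below 2.4 TPM and the copy above 4786 TPM, and for mt-Nd3, mt-Nd4l and mt-Nd4 the gene lies above the copy.

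Of the 37 genes, 28 reached 1 TPM in at least 4 libraries and were tested: 12 mRNAs, both rRNAs and 14 tRNAs. The mRNA below the limit was mt-Atp8, a short subunit of complex V, with 0 to 9 reads per library. The tRNAs for lysine (mt-Tk) and glycine (mt-Tg) had 0 reads in all 16 libraries. For counting error alone this allows up to 1.30 and 1.24 TPM at 3 counts in the shallowest library. The other 6 untested tRNAs, mt-Tf, mt-Ts1, mt-Td, mt-Th, mt-Ts2 and mt-Tl2, held 0 to 1.66 TPM. By position mt-Ts1 and mt-Td lie between mt-Co1 and mt-Co2, and mt-Tk and mt-Atp8 between mt-Co2 and mt-Atp6. Likewise mt-Tg lies between mt-Co3 and mt-Nd3. The genes on either side have the near-identical copies described above. Copies outside annotated genes were not searched, so whether reads of these 5 genes were lost to such copies was not tested. Of the 37 genes 9 are read from the light strand, namely mt-Nd6 and 8 tRNAs. The strand setting of the counting is not given in the sources used here, so reads of these 9 genes cannot be told apart from antisense reads of the opposite strand's transcripts.

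Vehicle levels are given for mRNAs with most of their reads on the mitochondrial gene. They ran from 13204 ± 458 TPM for mt-Co1 (SD, n = 4) down to 141 ± 14.7 TPM for mt-Nd6. In between stood mt-Cytb at 6974 ± 93.1, mt-Nd1 at 6616 ± 66.5, mt-Nd3 at 3455 ± 77.8, mt-Nd4 at 2886 ± 305, mt-Nd2 at 2758 ± 151, mt-Nd4l at 1775 ± 116 and mt-Nd5 at 1669 ± 185 TPM. With the reads of Gm29216 added, mt-Co1 stood at 20358 ± 669 TPM, of which 35.1% came from that copy. The libraries of mt-Nd4 and mt-Nd2 overlapped, as did those of mt-Nd4l and mt-Nd5, so these neighbours could not be ordered. The rRNAs stood far above, with mt-Rnr2, the large-subunit rRNA, at 260332 ± 10416 TPM and mt-Rnr1, the small-subunit rRNA, at 69631 ± 5972 TPM. The tRNA genes most read were mt-Ti at 212 ± 29.7, mt-Tm at 152 ± 10.8, mt-Tl1 at 133 ± 19.1 and mt-Tw at 119 ± 13.9 TPM. Sequences of 4 tRNA genes and of 2 others that went a different way are shown, with the anticodon in capitals. Mature tRNAs are short and folded, and fragments of longer transcripts map to the same letters, so a tRNA value here counts any read over the gene.
mt-Ti (isoleucine, chrM:3706-3774): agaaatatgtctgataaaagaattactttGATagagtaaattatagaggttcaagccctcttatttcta
mt-Tm (methionine, chrM:3845-3913): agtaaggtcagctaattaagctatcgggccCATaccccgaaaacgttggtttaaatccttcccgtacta
mt-Tl1 (leucine, chrM:2676-2750): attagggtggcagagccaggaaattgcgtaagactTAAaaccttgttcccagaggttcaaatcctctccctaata
mt-Tw (tryptophan, chrM:4950-5016): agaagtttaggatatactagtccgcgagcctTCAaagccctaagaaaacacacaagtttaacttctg
mt-Tv (valine, chrM:1025-1093): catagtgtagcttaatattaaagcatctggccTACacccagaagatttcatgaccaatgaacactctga
mt-Tt (threonine, chrM:15289-15355): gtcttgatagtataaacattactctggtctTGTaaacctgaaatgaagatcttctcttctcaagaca

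The first comparison asked what cisplatin did to these transcripts without preconditioning. All 12 tested mRNAs and 8 of 14 tRNAs were lower after cisplatin alone than after vehicle, mt-Rnr2 was slightly lower, and mt-Rnr1 did not pass the test. With limma on log2(TPM + 1) and Benjamini-Hochberg adjustment over 15014 genes, 22 of 28 genes passed a threshold of 0.05, 21 lower and 1 higher. Over all genes tested 66.8% passed (38.0% higher and 28.8% lower). The median log2 fold change was -0.89 for the 12 mRNAs and -0.73 for the 14 tRNAs, beside 0.08 for all genes. The libraries of the groups did not overlap for 18 of the 28 genes, all lower, beside 63.5% of all genes (37% higher and 26.6% lower). In bulk samples fewer cells of a type and less RNA per cell cannot be told apart.

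The decrease was uneven among the 7 mRNAs for complex I, the NADH dehydrogenase. For mt-Nd3 the 4 vehicle libraries held 3342, 3520, 3477 and 3480 TPM and the 4 BL_cisplatin libraries 929, 872, 873 and 1141 TPM. All 4 BL_cisplatin libraries lay far below the lowest vehicle library, and the log2 fold change was -1.86 (SE 0.32, limma adjusted p = 0.000213). For mt-Nd1 the vehicle libraries held 6604, 6712, 6564 and 6583 TPM and the BL_cisplatin libraries 3579, 3560, 3420 and 3777 TPM, a log2 fold change of -0.88 (SE 0.16, limma adjusted p = 0.000264). The spread within each group was narrow and the groups stood apart. For mt-Nd2, mt-Nd4 and mt-Nd4l the log2 fold changes were -0.99, -0.89 and -0.81, and no libraries overlapped. For mt-Nd5 the vehicle libraries held 1907, 1532, 1514 and 1724 TPM and the BL_cisplatin libraries 1163, 1038, 1102 and 1608 TPM. BL_cisplatin 4 lay above the lowest vehicle libraries, and the log2 fold change of -0.46 (limma adjusted p = 0.0374) lost the threshold when any of 5 libraries was left out (adjusted p between 0.0733 and 0.104). The light-strand gene mt-Nd6 fell from 141 to 94.3 TPM (log2 fold change -0.58, limma adjusted p = 0.00201).

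Within 1 library the ratio of 2 genes does not depend on how the library was scaled. The TPM ratio of mt-Nd3 to mt-Nd5 was 1.75 to 2.30 in vehicle and 0.709 to 0.841 in BL_cisplatin libraries. The ratio of mt-Nd3 to mt-Nd4l, which are neighbours with only mt-Tr between them, was 1.72 to 2.09 in vehicle and 0.907 to 0.969 after cisplatin alone. For mt-Nd4 over mt-Nd4l, whose reading frames overlap by 7 bases, the ratio was 1.58 to 1.71 in vehicle and 1.39 to 1.79 in BL_cisplatin, and the groups overlapped. These ratios are given as a description, with no test.

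For complex III, mt-Cytb held 7034, 6849, 6958 and 7054 TPM in vehicle and 2404, 2218, 2329 and 2972 TPM in BL_cisplatin libraries. Every BL_cisplatin library lay far below every vehicle library (log2 fold change -1.50, SE 0.25, limma adjusted p = 0.000154). For complex IV, mt-Co1 held 13104, 13285, 13766 and 12660 TPM in vehicle and 8662, 8022, 8599 and 8577 TPM in BL_cisplatin. The groups did not overlap, and the log2 fold change of -0.64 (SE 0.12, limma adjusted p = 0.000345) was smaller than that of mt-Cytb. The TPM ratio of mt-Cytb to mt-Co1 fell outside the vehicle range of 0.505 to 0.557 in all 4 BL_cisplatin libraries, at 0.271 to 0.346. The copies that hold the reads of mt-Co2, mt-Co3 and mt-Atp6 were lower too: log2 fold changes were -1.30 for Gm28661, -1.39 for Gm28437 and -1.24 for Gm10925 (limma adjusted p at most 0.000306). The mitochondrial rows of these 3 genes, at 2.38 TPM or less, gave -0.87, -0.89 and -0.91 on the log2(TPM + 1) scale, which understates changes at such levels.

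Taking each mRNA with the reads of its copy, the 13 mRNAs summed to 9.31 ± 0.11% of TPM in vehicle and 4.44 ± 0.37% in BL_cisplatin (SD, n = 4). Relative to the vehicle mean, the BL_cisplatin libraries stood at 47.1, 44.1, 46.0 and 53.4% for the mRNA sum. For the tRNA sum they stood at 44.4, 40.2, 42.6 and 44.9%. For the rRNA sum they stood at 87.5, 83.2, 86.9 and 101%. The mRNA and tRNA sums of every BL_cisplatin library thus lay below every vehicle library (lowest 98.7% and 88.9%), whereas the rRNA sum of BL_cisplatin 4 lay inside the vehicle range of 97.1 to 104%. The direction of the rRNA sum depends on the scaling: the log2 ratio of group means was -0.16 on TPM and 0.090 when libraries were scaled to nuclear protein-coding genes.

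**Figure D2:**
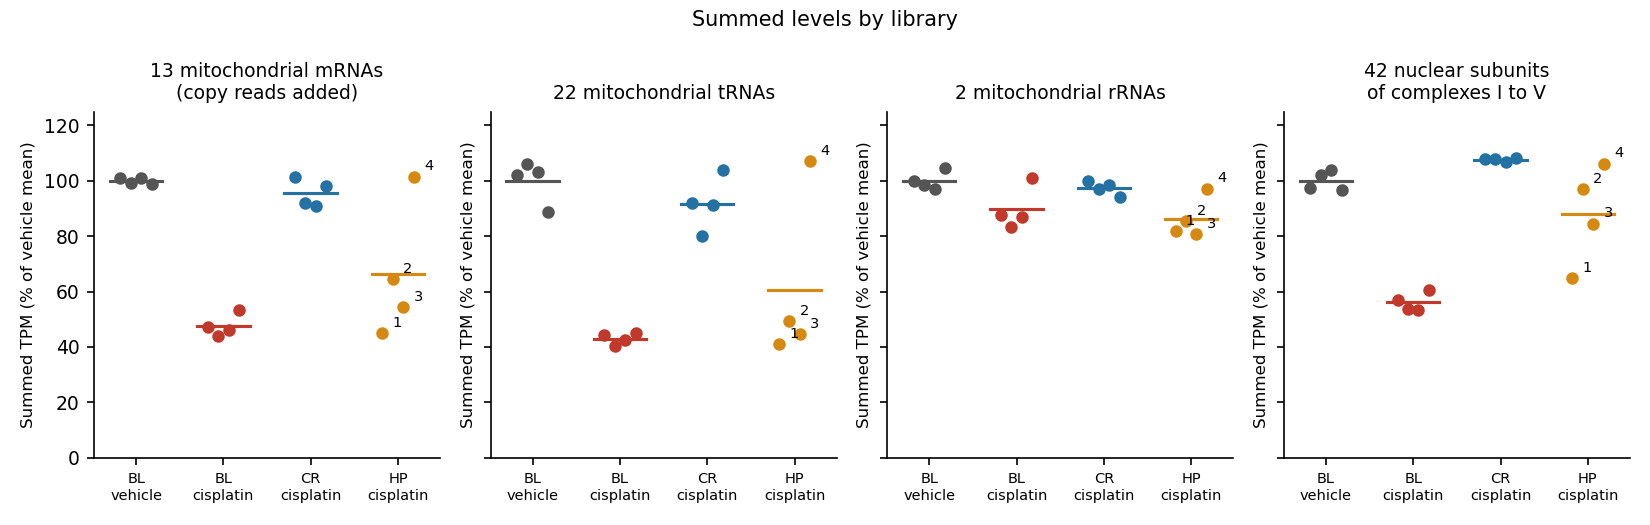
Summed TPM per library as a percentage of the vehicle mean for the 13 mRNAs with copy reads added, the 22 tRNAs, the 2 rRNAs and 42 nuclear-encoded respiratory subunits, by group. Points are libraries, lines are group means and numbers mark HP_cisplatin 1 to 4. The BL_cisplatin mRNA sums lie from 44.1 to 53.4% and the rRNA sums from 83.2 to 101%.

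Of the rRNAs only mt-Rnr2 passed. For mt-Rnr2 the vehicle libraries held 251936, 258251, 255677 and 275465 TPM and the BL_cisplatin libraries 214302, 204315, 218037 and 217093 TPM. The groups did not overlap (log2 fold change -0.29, SE 0.09, limma adjusted p = 0.0135), but the call was lost with scaling to nuclear protein-coding genes (-0.04, adjusted p = 0.718). For mt-Rnr1 the vehicle libraries held 78154, 66443, 64730 and 69198 TPM and the BL_cisplatin libraries 74448, 70167, 68755 and 115900 TPM. BL_cisplatin 4 stood apart and the other libraries overlapped (log2 fold change 0.21, limma adjusted p = 0.285), while scaling to nuclear protein-coding genes gave 0.46 (adjusted p = 0.0235). BL_cisplatin 4 is also the library with the highest sum of adipocyte markers (178 TPM, Ucp1 107 TPM), whose part in this value was not tested. The ratio of mt-Rnr2 to mt-Rnr1, independent of scaling, was 3.22 to 3.98 in vehicle and 2.88, 2.91, 3.17 and 1.87 in BL_cisplatin libraries, which all lay below the vehicle range. The ratio of rRNA to mRNA with copy reads was 3.40 to 3.75 in vehicle and 6.58 to 6.70 in BL_cisplatin.

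Among the 14 tested tRNA genes mt-Ti and mt-Tm, which lie next to each other but for mt-Tq, had the largest decreases in log2(TPM + 1). For mt-Ti the vehicle libraries held 220, 242, 214 and 171 TPM and the BL_cisplatin libraries 59.8, 32.2, 43.9 and 54.9 TPM. No library overlapped, with a log2 fold change of -2.15 (SE 0.41, limma adjusted p = 0.000376) from 83 to 154 reads per BL_cisplatin library. For mt-Tm the log2 fold change was -1.65 and for mt-Tq -1.35, and no libraries overlapped. For mt-Tl1 and mt-Tw the log2 fold changes were smaller, -0.69 and -0.80, again with no overlap. The ratio of mt-Ti to mt-Tl1, which flank mt-Nd1, was 1.53 to 1.74 in vehicle and 0.357 to 0.822 in BL_cisplatin libraries.

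Values of mt-Tt were lower after cisplatin alone, at 13.4, 20.3, 13.7 and 14.3 TPM against 22.3 to 26.6 TPM in vehicle (log2 fold change -0.67, limma adjusted p = 0.00549), without overlap. Values of mt-Tn and mt-Tc also passed, at log2 fold changes of -1.02 and -0.86, but their libraries overlapped, none exceeded 4.46 TPM, and both calls were lost when single libraries were left out (adjusted p up to 0.107 and 0.0914). The only gene that rose was mt-Tv, which lies between the rRNA genes: 1.78, 3.53, 1.74 and 3.11 TPM in vehicle against 3.15, 9.30, 5.30 and 4.99 TPM in BL_cisplatin. These values rest on 5 to 24 reads per library, and the groups overlapped (log2 fold change 0.88, limma adjusted p = 0.00816). The remaining 5 tested tRNAs, mt-Ta, mt-Ty, mt-Tr, mt-Te and mt-Tp, did not pass, with log2 fold changes of -0.76 to 0.10 (limma adjusted p between 0.0777 and 0.799).

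**Figure D3:**
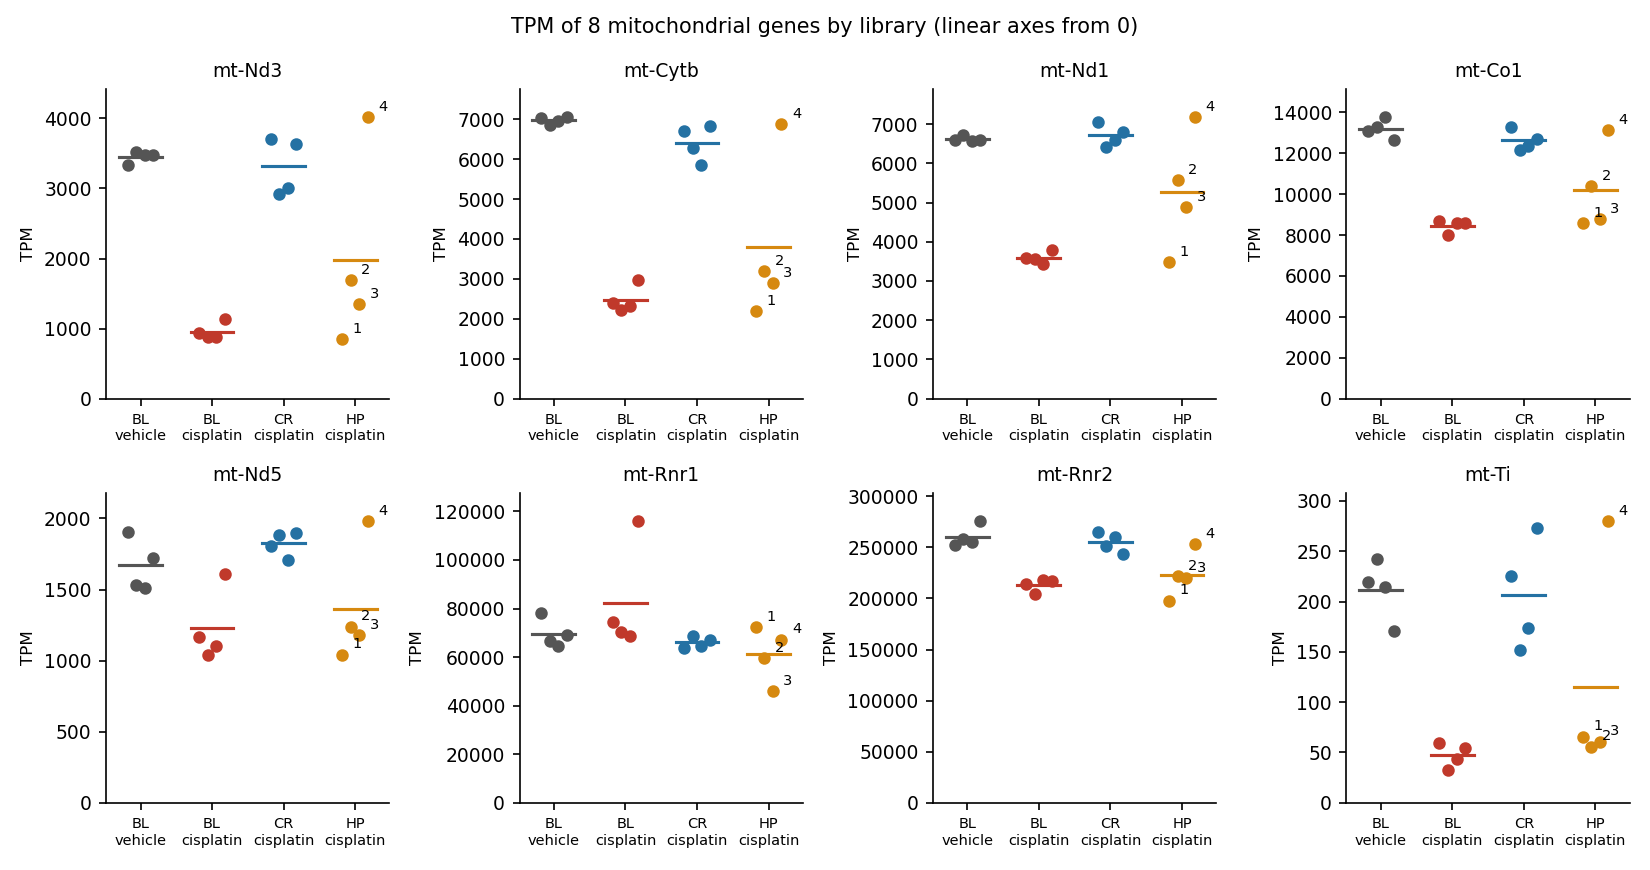
TPM per library of 8 mitochondrial genes on linear axes that start at 0, by group, with group means as lines and HP_cisplatin libraries numbered. For mt-Nd3, mt-Cytb and mt-Nd1 all BL_cisplatin libraries lie below all vehicle and CR_cisplatin libraries, while HP_cisplatin 4 lies near vehicle.

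With the title code as a term in the model, which then rests on CR_cisplatin 1 against the other CR_cisplatin libraries, 8 of 28 genes passed: mt-Nd1, mt-Nd3, mt-Cytb, mt-Co1, mt-Ti and the rows of mt-Co2, mt-Co3 and mt-Atp6. All 8 were lower. Of all genes 22.7% passed in that model, 1929 higher and 1484 lower of 15014, so only the count in either direction lies near the background. The sum of 8 proximal tubule markers moved with these transcripts, from 3854 to 4456 TPM in vehicle to 161 to 250 TPM in BL_cisplatin libraries, and all 8 were lower. Markers of the thick ascending limb (from 1227 to 2190 TPM to 172 to 462 TPM) and of the distal convoluted tubule (from 326 to 352 TPM to 14.7 to 24.9 TPM) were lower in 4 of 4 each. Principal cell sums overlapped, at 123 to 246 TPM in vehicle and 114 to 208 TPM in BL_cisplatin, with 2 of 4 markers lower. Of 4 intercalated cell markers 2 were lower. Of 4 podocyte markers 1 was higher and 1 lower, of 4 endothelial markers 1 was higher and 2 lower, and of 3 fibroblast markers 2 were higher. Of the red blood cell markers 4 were tested and 4 were lower (sums from 18.2 to 30.2 TPM to 0.353 to 1.22 TPM). The sum of 5 macrophage markers went from 24.5 to 31.1 TPM to 66.2 to 79.4 TPM, with 2 higher and 2 lower, and T and B cell markers summed to 1.09 TPM or less in all 16 libraries. The part of these cell types in the mitochondrial values was not tested.

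The nuclear side of the system also moved. All 42 nuclear-encoded subunits of complexes I to V that were tested (7, 4, 9, 10 and 12) passed as lower in BL_cisplatin, and their median log2 fold change was -0.82 (limma). Ndufs8, a core subunit of complex I, changed by -1.11, Sdha, the flavoprotein of complex II, by -1.31, Uqcrc2 of complex III by -1.16, Cox7b of complex IV by -1.08 and Atp5a1, the alpha subunit of complex V, by -1.25. Their summed TPM stood at 57.0, 53.7, 53.2 and 60.4% of the vehicle mean in BL_cisplatin libraries, beside 44.1 to 53.4% for the mitochondrial mRNA sum.

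Genes that act on mitochondrial RNA went both ways. Of 17 tested genes of mitochondrial transcription and replication 9 were lower and 4 higher, among them the polymerase Polrmt (-0.53), the packaging and initiation factor Tfam (-0.43), Tfb1m (-0.62), a dimethyltransferase for mitochondrial rRNA, and Mrpl12 (-0.64), a ribosomal protein, all lower. Of 34 genes of mitochondrial RNA processing and stability 19 were lower and 5 higher. Lrpprc, whose protein stabilizes mitochondrial mRNAs, changed by -0.82, Grsf1 of the RNA granules by -0.78 and Fastkd2 by -0.71, whereas Slirp, the partner of Lrpprc, stood at -0.19 (limma adjusted p = 0.0646). Of 21 mitochondrial tRNA synthetase and amidotransferase genes 13 were lower and 1 higher, with Gatb at -1.53 and Fars2 at -1.43. Of 17 genes of mitochondrial tRNA modification 7 were higher and 6 lower. Of 11 regulators of mitochondrial biogenesis 6 were lower and 3 higher: the coactivator Ppargc1a changed by -1.11 and the receptor Esrra by -0.996, while Pprc1 rose by 1.12 and Gabpb1 by 0.74 (limma, adjusted p at most 0.000175 for these 4). Over all genes 38.0% were higher and 28.8% lower, and the totals called, 13 of 17, 24 of 34, 14 of 21, 13 of 17 and 9 of 11 in the order given, are no result about these lists beside 66.8% of all genes.

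The second comparison asked how far preconditioning by calorie restriction altered the levels after cisplatin. Here 19 of 28 genes passed against BL_cisplatin, 18 higher and 1 lower, where 67.3% of all genes passed (29.8% higher and 37.4% lower). The mRNAs were higher in 11 of 12, the exception being the near-empty mt-Co2 row at 0.44 (limma adjusted p = 0.0784). The median log2 fold change of the 12 was 0.79, beside -0.08 for all genes. The libraries did not overlap for 19 of the 28 genes, all higher, beside 64.8% of all genes (27.5% higher and 37.3% lower). In the CR_cisplatin libraries mt-Nd3 held 3704, 2920, 3002 and 3636 TPM, and mt-Cytb 6703, 6269, 5861 and 6821 TPM. None of these overlapped the BL_cisplatin libraries, and the log2 fold changes were 1.80 and 1.38 (limma adjusted p = 0.000284 and 0.000286). For mt-Nd1 and mt-Co1 they were 0.91 and 0.58, and for the copies Gm28661, Gm28437 and Gm10925 they were 1.22, 1.28 and 1.15. Values of mt-Nd5 were 1809, 1881, 1710 and 1901 TPM, all above the BL_cisplatin libraries (0.59, limma adjusted p = 0.0101).

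Of the tRNAs 6 were higher and mt-Tv lower (-0.85, 4 to 9 reads per CR_cisplatin library, overlapping). For mt-Ti the CR_cisplatin libraries held 225, 152, 174 and 274 TPM (log2 fold change 2.09, limma adjusted p = 0.000478), for mt-Tm the change was 1.52, for mt-Tn 1.24, for mt-Tq 1.09, for mt-Tw 0.67 and for mt-Tl1 0.57. For mt-Tt the CR_cisplatin libraries held 9.97, 15.1, 16.3 and 15.7 TPM, overlapping BL_cisplatin (-0.11, limma adjusted p = 0.619). For mt-Rnr2 the libraries held 265534, 251676, 260182 and 243319 TPM (0.26, limma adjusted p = 0.0236), but scaling to nuclear protein-coding genes turned this to -0.014, and without BL_cisplatin 1, BL_cisplatin 2, CR_cisplatin 1 or CR_cisplatin 3 the adjusted p was 0.0503 to 0.0626. For mt-Rnr1 the change was -0.28 (limma adjusted p = 0.155), and -0.55 (adjusted p = 0.00866) with that scaling. All 42 nuclear subunits were higher, with a median of 0.93, and proximal tubule markers summed to 3781 to 4474 TPM, thick ascending limb markers to 1235 to 1727 TPM and macrophage markers to 22.7 to 31.3 TPM; the part of the markers was not tested.

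Against vehicle the CR_cisplatin libraries differed little. No mitochondrial gene passed in limma, where 0.0533% of all genes passed (0.0133% higher and 0.04% lower). An unadjusted p under 0.05 was reached by 2 of the 28, beside 4.06% of all genes, and 0 passed with voom on recovered reads. The libraries did not overlap for 4 of the 28, 1 higher and 3 lower, beside 9.16% of all genes (6.43% higher and 2.73% lower). The mRNA sum with copy reads stood at 101, 91.8, 90.9 and 98.2% of the vehicle mean, the tRNA sum at 91.9, 80.1, 91.1 and 104% and the rRNA sum at 99.8, 97.1, 98.4 and 94.1%. The largest log2 fold change was that of mt-Tt, -0.78, with all 4 CR_cisplatin libraries below all 4 vehicle libraries (adjusted p = 0.457). A gene that missed the threshold is not shown to be at the vehicle level. The ratio of mitochondrial mRNA with copies to the 42 nuclear subunits was 10.8 to 11.9, below the vehicle range of 12.3 to 13.1 in all 4 libraries.

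**Figure D4:**
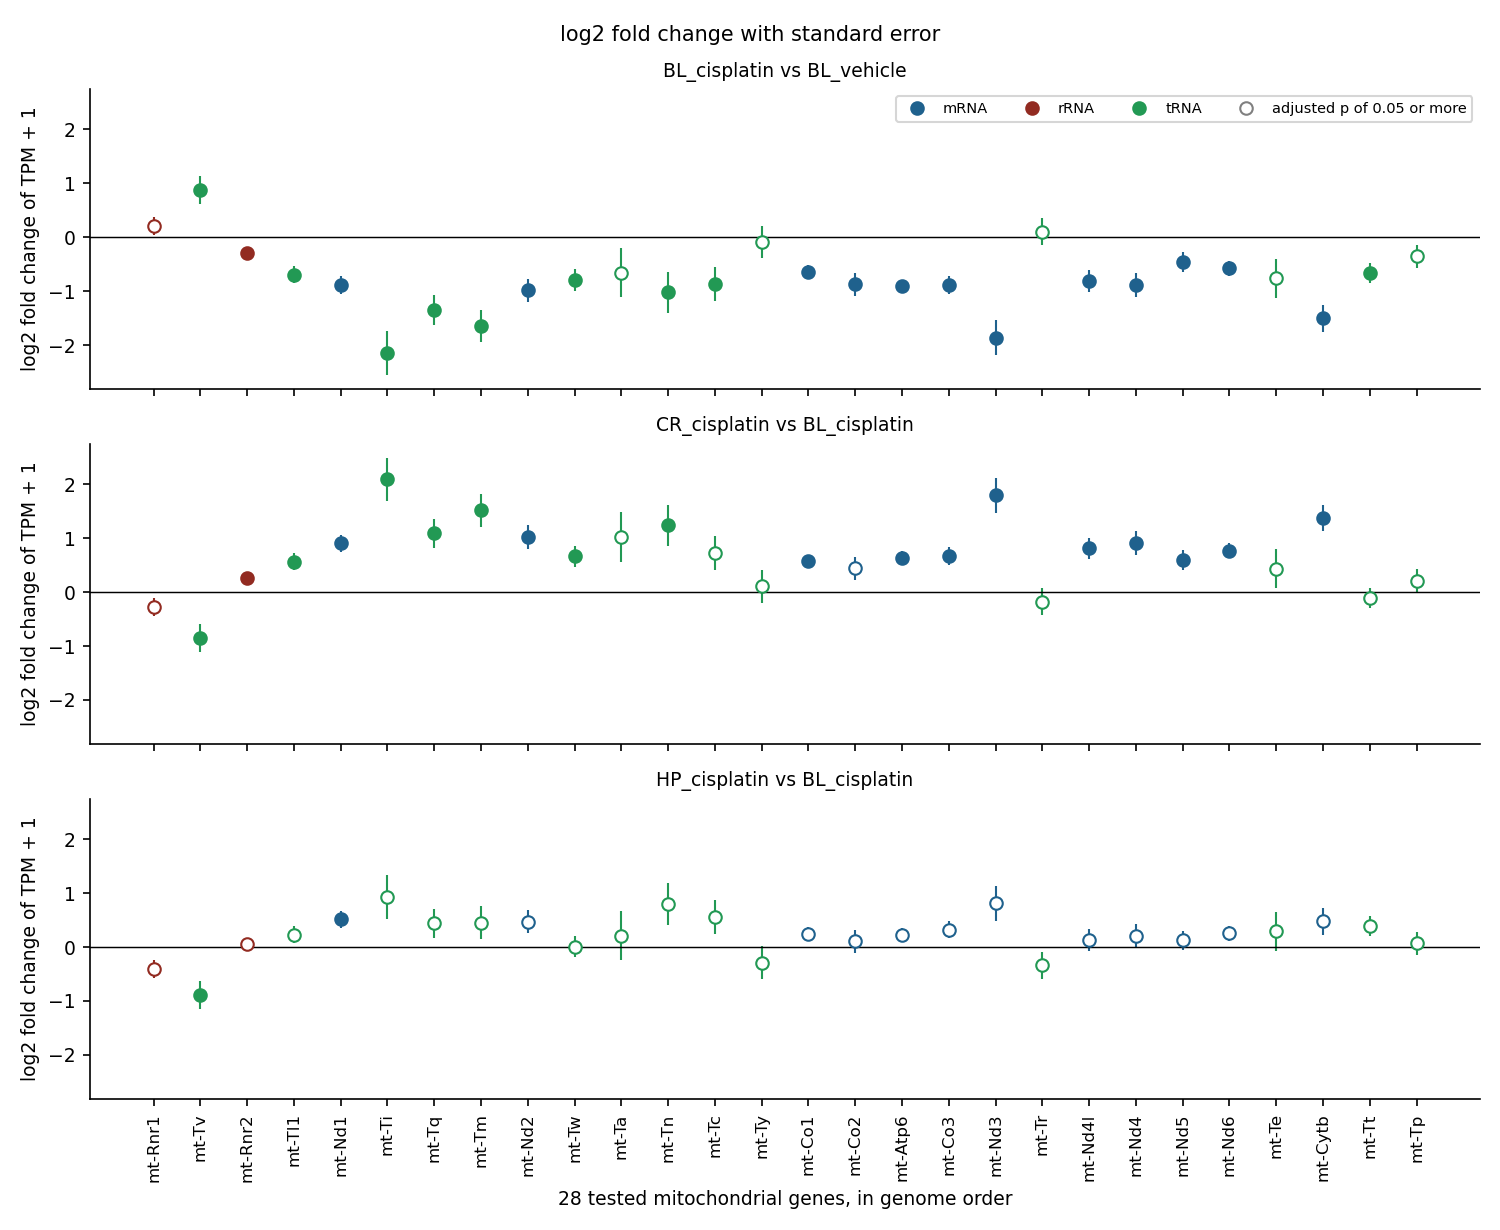
log2 fold changes of TPM + 1 with standard errors for the 28 tested genes in genome order, for BL_cisplatin against vehicle (top), CR_cisplatin against BL_cisplatin (middle) and HP_cisplatin against BL_cisplatin (bottom). Filled circles have a limma adjusted p under 0.05: 22, 19 and 2 genes. The middle and bottom panels share the BL_cisplatin libraries with the top panel, so opposite signs between panels are partly built in.

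The third comparison asked the same of preconditioning by hypoxia. Only 2 of 28 genes passed against BL_cisplatin, mt-Nd1 higher and mt-Tv lower, and 6 had an unadjusted p under 0.05, where 29.4% of all genes passed (16.4% higher and 13.1% lower) and 43.7% had such a p. Values of mt-Nd1 were 3483, 5576, 4888 and 7178 TPM in HP_cisplatin 1 to 4, so HP_cisplatin 1 lay among the BL_cisplatin libraries and the other 3 above them (log2 fold change 0.51, SE 0.16, limma adjusted p = 0.0288). Without HP_cisplatin 4 this change was 0.35 (adjusted p = 0.0545), and 1 gene passed, mt-Tv. Values of mt-Tv were 1.84 to 2.95 TPM from 5 to 8 reads (-0.89, limma adjusted p = 0.0222). Without HP_cisplatin 1 the number passing was 10, among them mt-Nd3 (1.14) and mt-Cytb (0.69). Without BL_cisplatin 1 it was 1, and without BL_cisplatin 2, BL_cisplatin 3 or HP_cisplatin 2 it was 0. The shares over all genes in these fits are not given here, so the counts are no result about the mitochondrial genes alone.

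The HP_cisplatin libraries spread widely, and for the mRNA and tRNA sums HP_cisplatin 4 alone reached the vehicle level. HP_cisplatin 4 is also the library of the closest pair, with CR_cisplatin 4, so the upper end of this spread rests on that library. Values of mt-Nd3 were 843, 1691, 1343 and 4019 TPM (0.81, limma adjusted p = 0.071), and those of mt-Cytb 2185, 3188, 2892 and 6885 TPM (0.48, adjusted p = 0.154). For both genes HP_cisplatin 1 lay below the BL_cisplatin libraries and HP_cisplatin 2 was intermediate. HP_cisplatin 3 was intermediate for mt-Nd3 but within the BL_cisplatin range of 2218 to 2972 TPM for mt-Cytb. HP_cisplatin 4 lay above all vehicle libraries for mt-Nd3 and within their range for mt-Cytb. For mt-Ti the values were 65.8, 55.7, 60.7 and 280 TPM, so only HP_cisplatin 4 left the range near BL_cisplatin. The mRNA sum with copy reads stood at 44.9, 64.6, 54.5 and 101% of the vehicle mean and the tRNA sum at 41.0, 49.2, 44.5 and 107%. For mt-Rnr1 the values were 72308, 59616, 45974 and 67204 TPM (-0.41, limma adjusted p = 0.0794; -0.60 and 0.0128 with scaling to nuclear protein-coding genes, -0.50 and 0.0302 without HP_cisplatin 1, and -0.46 and 0.0745 without HP_cisplatin 4). Proximal tubule markers summed to 258, 1909, 749 and 3830 TPM in the same 4 libraries, thick ascending limb markers to 422 to 1368 TPM and macrophage markers to 29.3 to 60.7 TPM. Adipocyte markers summed to 0.428, 66.5, 2.63 and 76.0 TPM in HP_cisplatin 1 to 4. The part of all these markers was not tested.

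The nuclear-encoded subunits gave other counts here than the mitochondrial mRNAs. All 42 nuclear subunits were higher in HP_cisplatin than in BL_cisplatin, with a median log2 fold change of 0.65, while 1 of 12 mitochondrial mRNAs passed and their median was 0.25. The 12 include the near-empty mt-Co2, mt-Co3 and mt-Atp6 rows. The median was also 0.25 for the 9 mRNAs with most reads on the gene. The copies Gm28661, Gm28437 and Gm10925 gave 0.52, 0.54 and 0.38, and none of them passed. Without HP_cisplatin 4, 41 of the 42 nuclear subunits passed with a median of 0.51, beside 12.2% of all genes higher. With the title code as a term, or with these 2 groups alone in the fit, 0 of 42 passed, as did 0 of all genes, so the counts of both sets were lost there. The nuclear sum stood at 64.7, 97.0, 84.5 and 106% of the vehicle mean in HP_cisplatin 1 to 4. The ratio of the mitochondrial mRNA sum with copies to the nuclear sum was 8.79, 8.44, 8.18 and 12.1 in HP_cisplatin, 12.3 to 13.1 in vehicle, 10.4 to 11.2 in BL_cisplatin and 10.8 to 11.9 in CR_cisplatin. HP_cisplatin 1 to 3 therefore lay below the other 13 libraries. Without the reads of the copies the ratio was 4.13, 3.77, 3.75 and 5.34 in HP_cisplatin and at least 4.66 in the other groups, with the same 3 libraries lowest. These ratios are a description, with no test. Polrmt (0.29, limma adjusted p = 0.0432), Tfam (0.31, adjusted p = 0.0103), Lrpprc (0.61, adjusted p = 0.00623) and Slirp (0.40, adjusted p = 0.00711) were higher. All 4 calls were lost in those same fits (adjusted p from 0.108 to 0.882), that of Polrmt was lost too without library 2, 3 or 4 of HP_cisplatin or of CR_cisplatin (0.0510 to 0.125), while Tfam, Lrpprc and Slirp passed without HP_cisplatin 4 (0.006 to 0.0256). Ppargc1a was higher as well (0.53, limma adjusted p = 0.0427). Its call was lost with the title code as a term (0.468), with these 2 groups alone (0.171) and without HP_cisplatin 4 (0.127). Leaving out library 2 or 3 of HP_cisplatin or any CR_cisplatin library lost it too (0.0507 to 0.113).

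**Figure D5:**
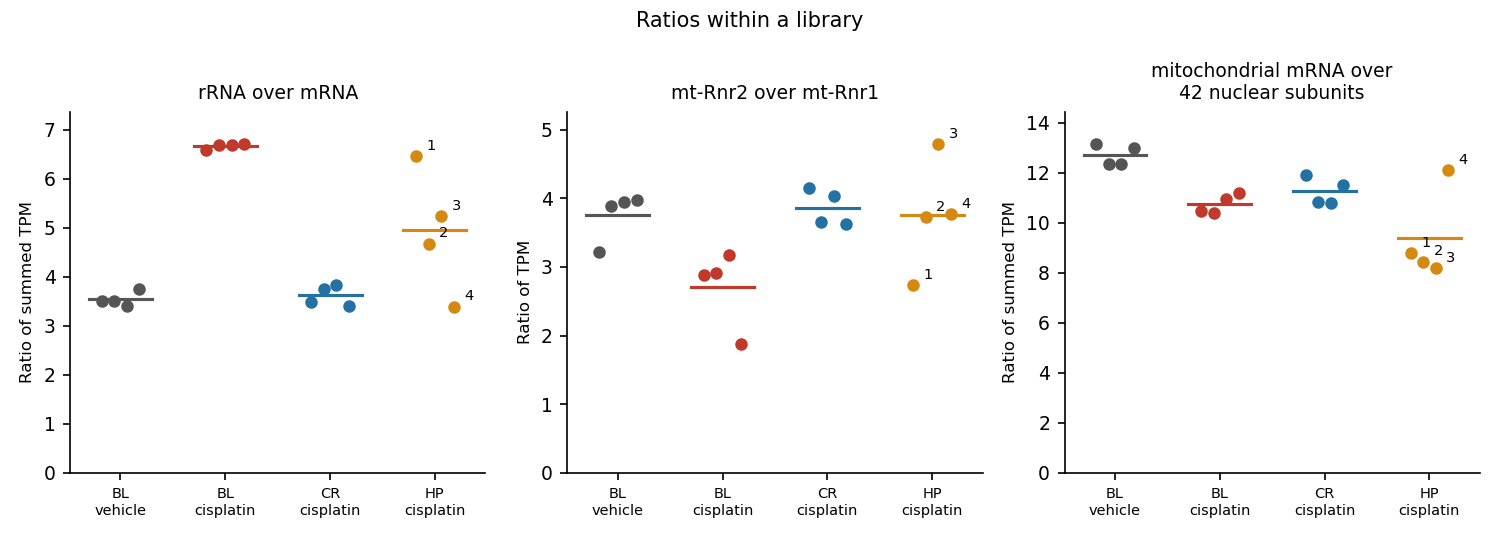
Ratios within single libraries by group: summed rRNA over summed mRNA with copy reads (left), mt-Rnr2 over mt-Rnr1 (middle), and mitochondrial mRNA with copy reads over the summed TPM of 42 nuclear-encoded subunits (right). Lines are group means. HP_cisplatin 1 to 3 have ratios of 8.18 to 8.79 in the right panel, below the other 13 libraries.

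Between the preconditioned groups 9 of 28 genes were higher in CR_cisplatin than in HP_cisplatin and none lower, where 24.3% of all genes passed (9.24% higher and 15.0% lower). An unadjusted p under 0.05 was reached by 15 of the 28, beside 43.5% of all genes. They were mt-Nd3 (0.98), mt-Cytb (0.90), mt-Nd4 (0.70), mt-Nd4l (0.68), mt-Nd6 (0.52), the mt-Atp6 row (0.41), mt-Ti (1.17), mt-Tm (1.06) and mt-Tw (0.66), with limma adjusted p between 0.0282 and 0.0499. Without HP_cisplatin 4, 19 passed, 18 higher and 1 lower, and all 9 were among them, where 51.0% of all genes passed. Without HP_cisplatin 2, 4 passed, where the share over all genes is not given here. Without HP_cisplatin 1, HP_cisplatin 3 or any 1 of the CR_cisplatin libraries 0 passed in limma, as in the fits without the filter, of these 2 groups alone and within the second title code, where 7 to 16 had an unadjusted p under 0.05. In each of these fits with 0, 0 of all genes passed as well. The shares of all genes with an unadjusted p under 0.05 in these fits are not given here. The 7 to 16 are therefore no result about the mitochondrial genes alone. Of the nuclear subunits 12 of 42 were higher, and 35 without HP_cisplatin 4, where 51.0% of all genes passed.

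HP_cisplatin against vehicle compares libraries of 1 title code. Here 13 of 28 genes were lower and none higher, where 29.3% of all genes passed (19.2% higher and 10.1% lower). An unadjusted p under 0.05 was reached by 17 of the 28, beside 44.4% of all genes. The largest decreases were those of mt-Ti (-1.23), mt-Tm (-1.20), mt-Nd3 (-1.05) and mt-Cytb (-1.02), with limma adjusted p between 0.0153 and 0.0379, and the libraries of all 4 overlapped because of HP_cisplatin 4. Without HP_cisplatin 4, 18 passed, all lower, with -1.78 for mt-Ti and -1.47 for mt-Nd3. Without HP_cisplatin 3 only 1 gene passed, without HP_cisplatin 1 there were 4, and without any 1 vehicle library 6. The shares over all genes in these fits are not given here. Fits of these 2 groups alone and within the second title code gave 0 in limma, with 11 and 13 at an unadjusted p under 0.05. Of all genes 0.0795 and 0.286% passed in these 2 fits. Their shares of all genes at an unadjusted p under 0.05 are not given here, so the 11 and 13 are no result about the mitochondrial genes alone. Of the nuclear subunits 5 of 42 were lower, with a median of -0.22, beside -0.62 for the 12 mitochondrial mRNAs. The median was -0.51 for the 9 mRNAs with most reads on the gene, and the copies Gm28661, Gm28437 and Gm10925 gave -0.78, -0.85 and -0.85. Without HP_cisplatin 4 the number of nuclear subunits lower was 25 of 42, where 51.3% of all genes passed (17.9% lower), and without HP_cisplatin 1 or 3 it was 0.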

How the data were processed

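RNA of 16 mouse kidney libraries was measured. The authors deposited a single table, in TPM. The submitters' processing notes name STAR 2.5, featureCounts, Subread 1.5 and the builds mm10 and GRCm38, with no role or setting. How reads that fit several places were counted is not given in the sources used here. Groups came from the injection and preconditioning labels.

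The low-value filter (1 TPM or more in 4 or more libraries) left 15014 genes. These were fitted on the log2(TPM + 1) scale by limma 3.58.1 (R 4.3.3, statmod 1.5.0, trend and robust options), using the 16 libraries together and no covariate beside the group. Tests were 2-sided, with Benjamini-Hochberg adjustment over all genes in each of 6 comparisons and a threshold of 0.05. The procedure was tested on simulated data. The groups were fitted with a common spread, although the HP_cisplatin libraries varied more.

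Read numbers were recovered from the steps of the TPM values: using GENCODE M21 lengths, 24571 of 32198 detected genes (76.3%), the mitochondrial ones included, gave whole numbers within 0.0001 reads, and 7627 needed a length found by search, on which the library totals depend in part. Recovered reads were used for depth, floors (3 counts), library pairs and voom. Floors cover counting error only. Nuclear copies were found with blastn 2.17.0 among annotated transcripts (at least 85% identity over 100 bases); their reads were added at 99% identity or more in an alternative. Positions and sequences are those of GENCODE M21 on GRCm38; no genome sequence was used here, and copies outside annotated genes were not searched.

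All mitochondrial genes could be named; nuclear genes were up to 4 per list by adjusted p, with Polrmt, Tfam, Lrpprc, Slirp and Ppargc1a whatever their result. The genes and lists were chosen with earlier results of these data known. Alternatives are given in the closing section.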

Additional observations from a re-analysis of the deposited data

Results flagged for a closer look

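In 11 of 128 sets of 4 libraries (the 4 groups for each tested gene and for sums of a class) 1 library stood apart from the other 3 by Dixon's gap criterion, which chance meets in about 1 of 20. Of these, 6 concerned HP_cisplatin 4: mt-Ti at 280 TPM (others 55.7 to 65.8), mt-Tw at 115 TPM (50.3 to 60.9), mt-Ta at 3.69 TPM (0.367 to 0.768), mt-Tn at 3.22 TPM (0.357 to 0.747), mt-Nd6 at 155 TPM (97.5 to 104) and the tRNA sum at 748 TPM (287 to 344). For BL_cisplatin 4, mt-Rnr1 stood at 115900 TPM (68755 to 74448). For BL_cisplatin 2, mt-Co1 stood at 8022 TPM (8577 to 8662) and mt-Tt at 20.3 TPM (13.4 to 14.3). The mt-Atp6 row of CR_cisplatin 2 stood at 1.08 TPM (0.785 to 0.825), and mt-Nd6 of BL_vehicle 1 at 119 TPM (147 to 151).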

How the results depend on the processing

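No paired analysis was possible because the labels number no replicates. Of 4272 single-gene values under the alternatives 3915 kept their direction and side of the threshold, 290 lost and 66 gained it, and 1 turned: mt-Rnr2 in CR_cisplatin against BL_cisplatin, at -0.014 with scaling to nuclear protein-coding genes. The cause of these changes was not tested. With the title code as a term the genes passing were 8 in BL_cisplatin against vehicle, 10 in CR_cisplatin against BL_cisplatin, 0 in HP_cisplatin against BL_cisplatin and 0 in CR_cisplatin against HP_cisplatin, beside 22.7, 42.1, 0 and 0% of all genes. Without the filter, and so with more genes tested, they were 1 in HP_cisplatin against BL_cisplatin, 0 in CR_cisplatin against HP_cisplatin and 6 in HP_cisplatin against vehicle. Of all genes 12.6, 0 and 9.18% passed there. Fits of only the groups compared gave 0 in all 3 of these, beside 0, 0 and 0.0795% of all genes. The second title code alone gave 0 in CR_cisplatin against HP_cisplatin and 0 in HP_cisplatin against vehicle, beside 0 and 0.286% of all genes. Scaling to genes outside the mitochondrial genome gave 1 in HP_cisplatin against BL_cisplatin, beside 27.0% of all genes. Without the 5 libraries with adipocyte markers, an alternative chosen after seeing the data as were the added copy reads, HP_cisplatin against BL_cisplatin gave 0 and CR_cisplatin against HP_cisplatin 17. The shares over all genes in that alternative are not given here.

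Leaving out 1 library at a time gave 19 to 22 genes in BL_cisplatin against vehicle, 18 to 21 in CR_cisplatin against BL_cisplatin, 0 to 10 in HP_cisplatin against BL_cisplatin, 0 to 19 in CR_cisplatin against HP_cisplatin, 0 in CR_cisplatin against vehicle and 1 to 18 in HP_cisplatin against vehicle. Shares over all genes are given above for only some of these fits, so the ranges are no result about the mitochondrial genes alone. The log2 ratio of group means of the mRNA sum, -0.92 in BL_cisplatin against vehicle, was -1.04 scaled to genes outside the mitochondrial genome, -0.68 scaled to nuclear protein-coding genes and -1.07 with copy reads; in CR_cisplatin against BL_cisplatin it was 0.89, 0.62 with protein-coding scaling and 1.00 with copy reads. For the rRNA sum the same scalings moved -0.16 to -0.27 and 0.090 in BL_cisplatin against vehicle, and 0.12 to 0.21 and -0.15 in CR_cisplatin against BL_cisplatin. They moved it from -0.06 to -0.24 (protein-coding) in HP_cisplatin against BL_cisplatin, from 0.18 to 0.27 in CR_cisplatin against HP_cisplatin and from -0.21 to -0.33 in HP_cisplatin against vehicle (both outside the mitochondrial genome). For the tRNA sum they moved -1.22 to -1.33 and -0.97 in BL_cisplatin against vehicle, and 1.09 to 0.82 (protein-coding) in CR_cisplatin against BL_cisplatin. Protein-coding scaling moved the median of all genes to 0.29, -0.29 and -0.17 in the 3 comparisons with BL_cisplatin, and the share of calls that were higher from 56.9 to 73.0%, from 44.4 to 26.5% and from 55.5 to 23.3%. In CR_cisplatin against HP_cisplatin that share was 38.1%, 27.6% with protein-coding scaling and 54.8% with scaling to genes outside the mitochondrial genome, which also moved HP_cisplatin against vehicle from 65.7 to 43.9%. Fits within the second title code were not run for the 3 comparisons with BL_cisplatin, of which it holds no library. Depth limits the tRNAs most: mt-Tn and mt-Tc rest on 0 to 12 reads per library.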
